A study of Caenorhabditis elegans with 6 samples.

Results

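Autophagy and TORC1 pathway genes were followed in coelomocytes of Caenorhabditis elegans with and without ectopic CHE-1. The gene set was a list of 35 public names covering initiation, ubiquitin-like conjugation, membrane expansion and maturation, cargo recognition, and regulation by TORC1 and the transcription factor HLH-30. Of these names 34 matched a row of the raw table of 21882 genes, and 33 passed the filter on low counts. The name epg-1 was not in the name tables used. The gene now called atg-13, the worm Atg13 that was first described as epg-1, is given beside the set and is not counted in it.

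The 6 libraries were made from GFP-positive cells sorted out of dissociated L3 larvae, 3 per group. The CHE-1 group came from strain BAT2088, which carries barIs177 (unc-122prom::gfp), barIs115 and glp-4(bn2). The array barIs115 drives FLAG-tagged che-1 from the unc-122 promoter with the unc-54 3' UTR, beside an mCherry marker under the myo-2 promoter. The control group came from strain BAT2087, which carries barIs177 and glp-4(bn2) without barIs115. Parents of both groups were kept at 15 °C, and their eggs were moved to 25 °C, the restrictive temperature, where glp-4(bn2) limits germline development. In both groups the larvae had no food for about 24 h and were then fed until L3, and each genotype is represented by 1 strain. The unc-122 promoter drives both GFP and che-1, so the sorted cells are cells in which it was active, and the labels do not say how many worms or sorts stand behind a library.

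Macroautophagy encloses cytoplasm in a double membrane that fuses with the lysosome. A kinase complex and a lipid kinase complex start the membrane, a conjugation cascade attaches Atg8 proteins to it, and receptors bring in cargo. The kinase complex TORC1 holds the pathway back when nutrients are plentiful, and TFEB, called HLH-30 in the worm, activates autophagy and lysosome genes. Coelomocytes are scavenger cells that take up fluid from the body cavity and degrade it in large lysosomes. CHE-1 is the zinc finger factor that specifies the ASE gustatory neurons.

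The libraries held 21353072 to 57860556 estimated counts in the CHE-1 group and 23062805 to 58325279 in the control group. The gene che-1 (WBGene00000483) had 10744, 50917 and 42227 counts in the CHE-1 libraries, against 3, 0 and 1 in the control libraries, in the direction of the labels. The native gene of the promoter, unc-122, averaged 1359.9 ± 187 CPM (counts scaled to a common library size) with CHE-1 and 1668 ± 391 CPM in controls (SD, n = 3 each). Coelomocyte markers (6 genes) were all detected in both groups, and their summed level was 4301 to 6196 CPM with CHE-1 and 12157 to 15834 CPM in controls, with 3 of 6 called lower. Neuronal markers (8 genes) summed to 5011 to 5683 CPM with CHE-1 and 341 to 549 CPM in controls, with 5 called higher. Of those not called, unc-31 lay higher with CHE-1 and snb-1 overlapped between the groups. The marker unc-119 lay lower, at 77.1, 80.8 and 74.7 CPM with CHE-1 and at 124, 97.7 and 139 CPM in controls. Body wall muscle markers (8 genes, 1 called higher) summed to 2031 to 3299 and 1149 to 1545 CPM, and intestine markers (6 genes, none called) to 212 to 913 and 224 to 306 CPM, CHE-1 before control. The called muscle marker was mup-2, at 864, 1062 and 1147 CPM with CHE-1 and at 176, 184 and 136 CPM in controls. Each of the other muscle markers overlapped between the groups. Hypodermis markers (7 genes) reached at most 188 CPM with CHE-1 and 233 CPM in controls, with col-19 at 0 in controls. Pharynx markers (5 genes) reached 100.6 CPM with CHE-1, with ceh-22 at 0, and 515 CPM in controls. Germline markers (7 genes) reached 46.4 CPM with CHE-1, with rme-2 at 0, and 30.3 CPM in controls, with mex-5, puf-5 and cpg-1 at 0. Of these lists 6 of 7 hypodermis, 4 of 5 pharynx and 3 of 7 germline markers passed the filter on low counts. None of those tested was called. How far these lists take part in the values below was not tested.

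The 2 groups ask what ectopic CHE-1 changes in coelomocyte RNA. No autophagy or TORC1 member passed the test. With edgeR's quasi-likelihood test and a Benjamini-Hochberg adjusted p under 0.05 over all 9112 genes tested, 0 of 33 members were called higher and 0 lower, where 5.06% of all tested genes were called (3.37% higher and 1.69% lower). At an unadjusted p under 0.05 there was 1 member, allo-1, where 14.2% of all tested genes were below it. The other tools also called few: limma-voom called 0 where it called 7.99% of all genes, edgeR with adjusted deviances 0 where it called 11.5%, and DESeq2 1 higher (allo-1) and 1 lower (atg-10, which the filter of the other tests left out). DESeq2 called 11.6% of all genes for which it gave an adjusted p (7.26% higher and 4.36% lower). The median log2 fold change, CHE-1 over control, was -0.07 over the 33 members and 0.04 over all tested genes. In bulk RNA of sorted cells, fewer cells of a type and less RNA per cell cannot be told apart.

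The size of the differences can be bounded better than their sign. The log2 fold change was between -1 and 1 for 32 of 33 members, as it was for 64.4% of all tested genes. Its approximate 95% interval lay wholly between -1 and 1 for 17 of the 33, against 12.4% of all tested genes. For the other 16 members, a change of 1 or more on the log2 scale in some direction lay inside the interval, so a missed threshold does not show that they were unchanged. Members were above the midpoint in level, with a median percentile of 71.4 among tested genes for CPM per kilobase of merged exons. Their libraries also scattered less, with a median coefficient of variation of 24.4% with CHE-1 and 25.6% in controls, against 49.9% and 47.6% over all tested genes. The groups did not overlap for allo-1 and ragc-1, which is 2 of 33 members where 23.4% of all tested genes did not overlap.

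**Figure D1:**
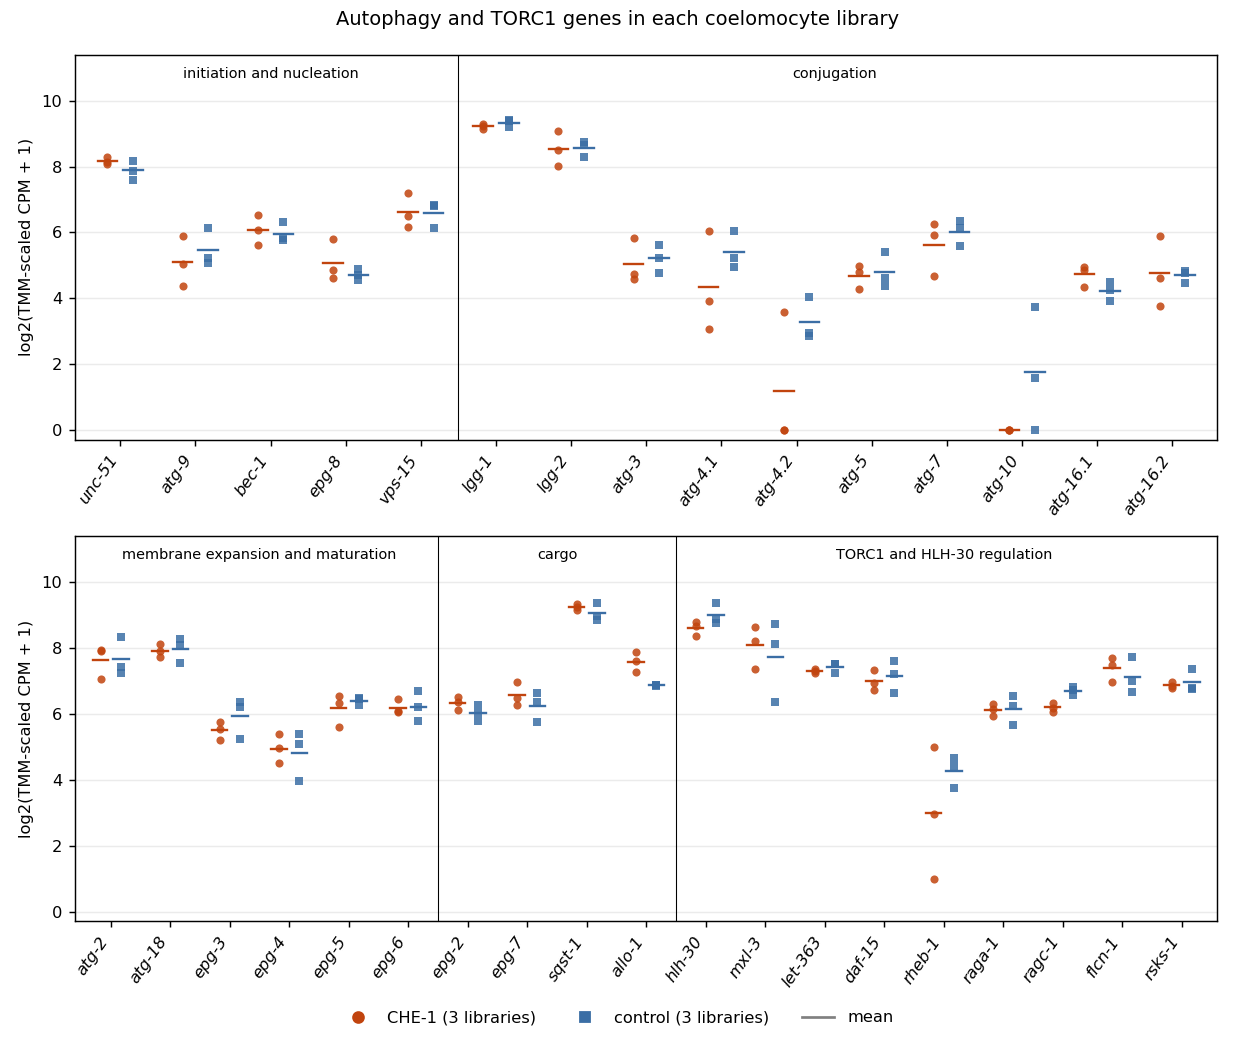
Level of each of the 34 members in each of the 6 libraries, as log2 of TMM-scaled CPM plus 1, with CHE-1 circles left of control squares and a bar at the mean of the log2 values, grouped by role. The points of the groups lie apart for allo-1 and ragc-1 alone, and those of atg-10 meet only at 0. The genes rheb-1, atg-4.1, atg-4.2 and atg-10 hold the widest scatter.

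**Figure D2:**
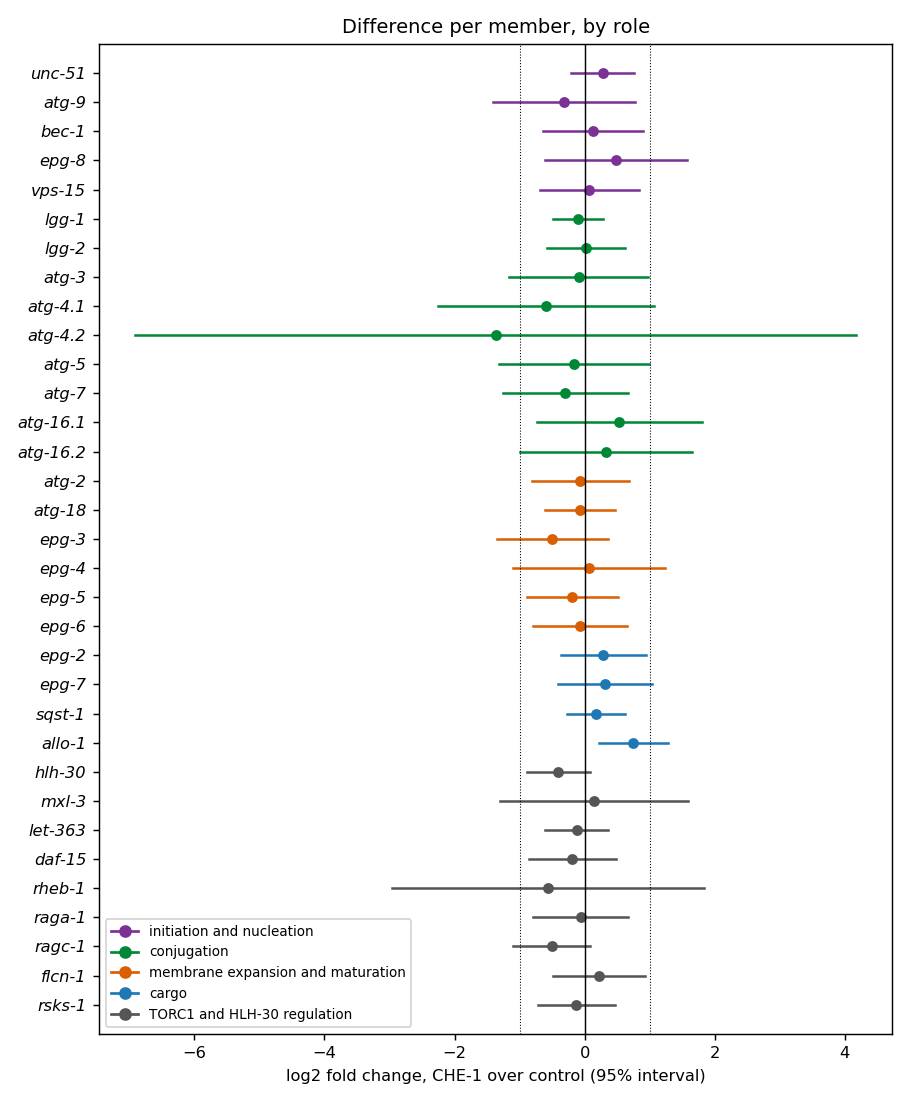
Log2 fold change, CHE-1 over control, of the 33 tested members with its approximate 95% interval, coloured by role, with dotted lines at -1 and 1. The interval of allo-1 alone leaves out 0, and that of atg-4.2 is the widest, running from -6.91 to 4.18.

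Initiation and nucleation genes gave 0 calls among 5 (median log2 fold change 0.13). The kinase gene unc-51 (WBGene00006786, V:19995986-20004485, WBcel235), the worm ULK/Atg1, was the most abundant of them per length. It stood at 282, 271 and 311 CPM in the CHE-1 libraries, against 194, 287 and 233 CPM in the control libraries. The groups overlapped, since control library 2 lay above CHE-1 libraries 1 and 2. Its log2 fold change was 0.28 (SE 0.22, interval -0.21 to 0.76, adjusted p = 0.825 in edgeR). The kinase partner atg-13 was at 94.1, 60.8 and 81.4 CPM with CHE-1 and at 65.9, 29.1 and 63.8 CPM in controls, with overlap. The log2 fold change was 0.57 with an interval from -0.27 to 1.42 (adjusted p = 0.698 in edgeR).

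Genes of the class III phosphatidylinositol 3-kinase complex, which makes the lipid that recruits later factors, had small differences against wide intervals. The Beclin homologue bec-1 averaged 68.5 ± 21.6 CPM with CHE-1 and 62.5 ± 14.0 CPM in controls (SD, n = 3 each, log2 fold change 0.13, interval -0.64 to 0.90). The regulatory subunit gene vps-15 averaged 102 ± 39.7 and 97.2 ± 24.6 CPM, CHE-1 before control (0.07, -0.68 to 0.83). For the Atg14 homologue epg-8 the means were 35.2 ± 16.7 with CHE-1 and 25.3 ± 3.12 CPM in controls (0.48, -0.61 to 1.57). Most of that gap came with CHE-1 library 3, at 54.3 CPM, while CHE-1 libraries 1 and 2, at 27.8 and 23.5 CPM, lay within the control range of 28.5, 24.9 and 22.3 CPM. The membrane protein gene atg-9, whose product rides on vesicles that seed the new membrane, averaged 36.9 ± 19.9 CPM with CHE-1 and 46.0 ± 20.0 CPM in controls (-0.32, -1.41 to 0.78).

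Conjugation genes held both the most abundant and the least abundant members. None of the 9 tested was called, and their median log2 fold change was -0.11. The Atg8 gene lgg-1 (WBGene00002980, II:6346960-6347719), of the GABARAP type, was at 602, 564 and 624 CPM in the CHE-1 libraries and at 665, 679 and 584 CPM in the control libraries. Its SE was the smallest of the 33, and the interval ran from -0.49 to 0.28 around -0.11 (SE 0.18, adjusted p = 0.998 in edgeR). The second Atg8 gene, lgg-2 (WBGene00002981, IV:10934196-10935903), of the LC3 type, was at 260, 362 and 538 CPM with CHE-1 and at 313, 404 and 425 CPM in controls. The difference was 0.02 on the log2 scale (SE 0.27, interval -0.57 to 0.62), and the CHE-1 libraries spread on both sides of the controls.

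Per kilobase of exon, lgg-1 was the more abundant Atg8 transcript in all 6 libraries. It made up 77.3%, 69.6% and 63.0% of the pair with CHE-1 and 75.7%, 71.1% and 66.8% in controls. These shares overlapped fully between the groups.

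The enzymes of the cascade lay below the Atg8 genes in level, at 28.5 CPM per kilobase for atg-7, 36.6 for atg-3 and 25.9 for atg-5 over all 6 libraries, against 875 for lgg-1 and 369 for lgg-2. The E1-like gene atg-7 averaged 53.3 ± 25.9 CPM with CHE-1 and 65.4 ± 17.3 CPM in controls, and the E2-like gene atg-3, which acts on Atg8, 35.0 ± 18.7 and 37.3 ± 11.04 CPM. Their log2 fold changes were -0.30 and -0.09. Among genes of the E3-like complex, atg-5 averaged 25.2 ± 6.10 and 28.3 ± 11.6 CPM (CHE-1 before control, log2 fold change -0.17). The paralog atg-16.1 was at 19.5, 28.1 and 29.9 CPM with CHE-1 and at 14.0, 21.4 and 18.1 CPM in controls (0.54, interval -0.74 to 1.81). The paralog atg-16.2 was at 58.5, 23.5 and 12.6 CPM with CHE-1 and at 21.03, 27.6 and 26.4 CPM in controls (0.33, -0.99 to 1.66). The atg-16.1 share of this pair per kilobase was 25.2%, 54.8% and 70.6% in the CHE-1 libraries, against 40.2%, 44.0% and 40.9% in the control libraries, so the CHE-1 libraries spanned the control range on both sides.

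Counts of 3 further conjugation genes were low or uneven. The Atg8 protease gene atg-4.1 was at 7.34, 65.3 and 14.0 CPM with CHE-1 and at 30.1, 65.3 and 36.0 CPM in controls (log2 fold change -0.60, interval -2.26 to 1.06). Its paralog atg-4.2 (WBGene00014080) had 0, 695 and 0 counts in the CHE-1 libraries and 790, 149 and 363 in the control libraries. That is a log2 fold change of -1.37 with an SE of 2.52, and the value rests on CHE-1 library 2. Without that library all CHE-1 counts are 0 and the fitted value was -11.59, which depends on the prior count and is no bound (adjusted p = 0.244 in edgeR). Leaving out each of the other libraries gave -1.65 to -0.78, and limma-voom gave -5.97 (adjusted p = 0.199). The E2-like gene atg-10 (WBGene00008427, II:8659135-8659800), which in other species joins Atg12 to Atg5, had 0 counts in each CHE-1 library and 0, 295 and 107 counts in the control libraries. A count of 0 allows up to 3 counts, or 0.136, 0.0476 and 0.0572 CPM in CHE-1 libraries 1 to 3, as far as counting error goes. Control library 1 also had none, so the groups overlapped. DESeq2 called atg-10 lower (adjusted p = 0.0315), while edgeR without a count filter did not (adjusted p = 0.350).

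Membrane expansion and maturation genes gave 0 calls among 6, with log2 fold changes between -0.50 and 0.07. The most abundant per length was atg-18 (WBGene00018294, V:8629174-8631327), a WIPI-family protein that binds phosphatidylinositol 3-phosphate. It was at 209, 240.0 and 280.0 CPM with CHE-1 and at 185, 272 and 309 CPM in controls, with overlap (log2 fold change -0.07, SE 0.25, interval -0.61 to 0.47, adjusted p = 0.998 in edgeR). The second WIPI-family gene, epg-6, averaged 72.6 ± 11.5 CPM with CHE-1 and 76.2 ± 23.8 CPM in controls. The lipid transfer gene atg-2, whose product works with the WIPI proteins, averaged 205 ± 62.2 and 214 ± 95.3 CPM, CHE-1 before control. Both had log2 fold changes of about 0, at -0.07 and -0.06.

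Of the endoplasmic reticulum genes, epg-3, the VMP1 homologue, averaged 45.2 ± 8.58 CPM with CHE-1 and 63.8 ± 24.0 CPM in controls. A log2 fold change of -0.50 had an interval from -1.35 to 0.36, and control library 2, at 36.5 CPM, lay with the CHE-1 libraries at 36.3, 45.9 and 53.4 CPM. The EI24 homologue epg-4 averaged 30.9 ± 9.51 with CHE-1 and 29.4 ± 13.4 CPM in controls (0.07). The tether gene epg-5, which helps autophagosomes fuse with lysosomes, averaged 73.5 ± 23.1 and 83.7 ± 6.18 CPM, CHE-1 before control (-0.19, interval -0.89 to 0.52).

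All 4 cargo genes had positive log2 fold changes, from 0.18 to 0.75 with a median of 0.30, and none was called. The gene allo-1 (WBGene00011292, IV:10695306-10697072) encodes the receptor through which worm embryos clear paternal mitochondria. It was at 234, 196 and 154 CPM in the CHE-1 libraries, against 116, 117 and 115 CPM in the control libraries. Every CHE-1 library lay above every control library. Its log2 fold change was 0.75 (SE 0.24, interval 0.22 to 1.28), with an unadjusted p of 0.0104 and an adjusted p of 0.131 in edgeR's quasi-likelihood test. DESeq2 called it higher (adjusted p = 0.0394), whereas limma-voom (0.117) and edgeR with adjusted deviances (0.0821) did not, and over all alternatives its adjusted p ran from 0.0394 to 0.383.

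The p62 homologue sqst-1 (WBGene00011737, IV:12034282-12036891), whose protein is itself degraded with the cargo it binds, was the most abundant cargo gene per length. It was at 648, 570.4 and 612 CPM with CHE-1 and at 458, 664 and 497 CPM in controls. Control library 2 was the highest of all 6, so the groups overlapped (log2 fold change 0.18, SE 0.20, interval -0.26 to 0.62, adjusted p = 0.9747 in edgeR). The scaffold gene epg-2, which links P granule proteins to the pathway, averaged 79.5 ± 10.74 CPM with CHE-1 and 65.0 ± 11.2 CPM in controls (0.29, interval -0.37 to 0.95). The scaffold gene epg-7, related to FIP200, averaged 96.3 ± 25.2 and 77.5 ± 22.5 CPM, CHE-1 before control (0.31, interval -0.41 to 1.04).

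Among the 9 genes of TORC1 and HLH-30 regulation, 7 had negative and 2 positive log2 fold changes (median -0.13), and none was called. The TFEB homologue hlh-30 (WBGene00020930, IV:4014793-4034951) was at 328, 441 and 409 CPM in the CHE-1 libraries, against 428, 654 and 476 CPM in the control libraries. The lowest control library lay between CHE-1 libraries 2 and 3. Its log2 fold change was -0.40 (SE 0.22, interval -0.89 to 0.09, adjusted p = 0.535 in edgeR).

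The gene mxl-3 (WBGene00003511, X:13349639-13350804) encodes a helix-loop-helix factor that opposes HLH-30 at lysosomal lipase genes. It was the most abundant regulator per length. It stood at 165, 295 and 400.4 CPM with CHE-1 and at 80.9, 276 and 424 CPM in controls, so its SD within each group was wider than the gap between the means of 287 ± 118 and 260 ± 172 CPM (SD, n = 3 each). The log2 fold change was 0.14 (SE 0.60, interval -1.30 to 1.58, adjusted p = 0.998 in edgeR). Per kilobase, hlh-30 made up 38.0%, 31.6% and 24.0% of the hlh-30 and mxl-3 pair with CHE-1, and 62.0%, 42.2% and 25.7% in controls.

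Intervals of the TOR kinase, Raptor and S6 kinase genes lay between -1 and 1 on the log2 scale. The TOR kinase gene let-363 was at 152, 165 and 157 CPM with CHE-1 and at 182, 181 and 152 CPM in controls (log2 fold change -0.12, interval -0.61 to 0.36). The Raptor gene daf-15 was at 160, 121 and 105 CPM with CHE-1 and at 194, 149 and 97.4 CPM in controls (-0.19, -0.86 to 0.48). The S6 kinase gene rsks-1, which acts downstream of TORC1, averaged 116 ± 7.20 and 127 ± 32.5 CPM, CHE-1 before control (-0.13, -0.72 to 0.46).

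The Rag GTPases bring TORC1 to the lysosome when amino acids are present. The gene ragc-1 (WBGene00012497, IV:11603613-11604933) was at 72.1, 79.7 and 65.7 CPM in the CHE-1 libraries, against 94.8, 104 and 111 CPM in the control libraries. Every CHE-1 library lay below every control library, but the gene did not pass (log2 fold change -0.51, SE 0.27, interval -1.10 to 0.08, adjusted p = 0.486 in edgeR). Its partner raga-1 was at 77.4, 60.3 and 70.0 CPM with CHE-1 and at 74.0, 49.2 and 93.3 CPM in controls (-0.06, -0.79 to 0.67). The folliculin gene flcn-1, whose mammalian counterpart acts on the RagC protein, averaged 170.3 ± 41.5 and 147 ± 59.0 CPM, CHE-1 before control (0.22, -0.49 to 0.92). The GTPase gene rheb-1, the direct activator of TORC1, had 22, 1945 and 352 counts in the CHE-1 libraries and 1241, 297 and 1097 in the control libraries. CHE-1 library 1, the smallest library, gave the lowest value of 0.997 CPM, and the interval ran from -2.97 to 1.83 around -0.57.

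In order of level per kilobase, lgg-1 was highest, at 843 ± 42.4 CPM per kilobase with CHE-1 and 908 ± 72.6 in controls. The next were lgg-2 (372 ± 136 and 367 ± 57.7), mxl-3 (285 ± 117 and 258 ± 171) and sqst-1 (271 ± 17.1 and 240 ± 48.6), CHE-1 before control. The ranges of mean ± SD overlapped between lgg-2 and mxl-3 and between mxl-3 and sqst-1 in both groups, while those of lgg-2 and sqst-1 overlapped with CHE-1 and lay apart in controls. At the other end, by the mean over all 6 libraries, atg-4.2 lay below atg-10. The gene atg-4.2 averaged 2.17 ± 3.76 with CHE-1 and 5.61 ± 3.07 in controls, against 0 and 9.11 ± 12.6 for atg-10. The order of the group means thus differed, but control library 2 alone had atg-10 above atg-4.2, at 23.5 against 3.69. In control libraries 1 and 3, atg-4.2 was at 9.15 and 3.99, and atg-10 at 0 and 3.79. Above atg-10 came epg-5, at 10.1 ± 3.17 with CHE-1 and 11.5 ± 0.847 in controls. Summed over the 34 members, the CHE-1 libraries held 4373, 4779 and 5176 CPM and the control libraries 4183, 5468 and 4784 CPM, so that the highest and the lowest sum were both in controls. The cargo genes summed to 1025, 944 and 972 CPM with CHE-1 and to 691, 955 and 748 CPM in controls. For TORC1 and HLH-30 regulation the sums were 1271, 1488 and 1463 CPM with CHE-1 and 1289, 1803 and 1607 CPM in controls.

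**Figure D3:**
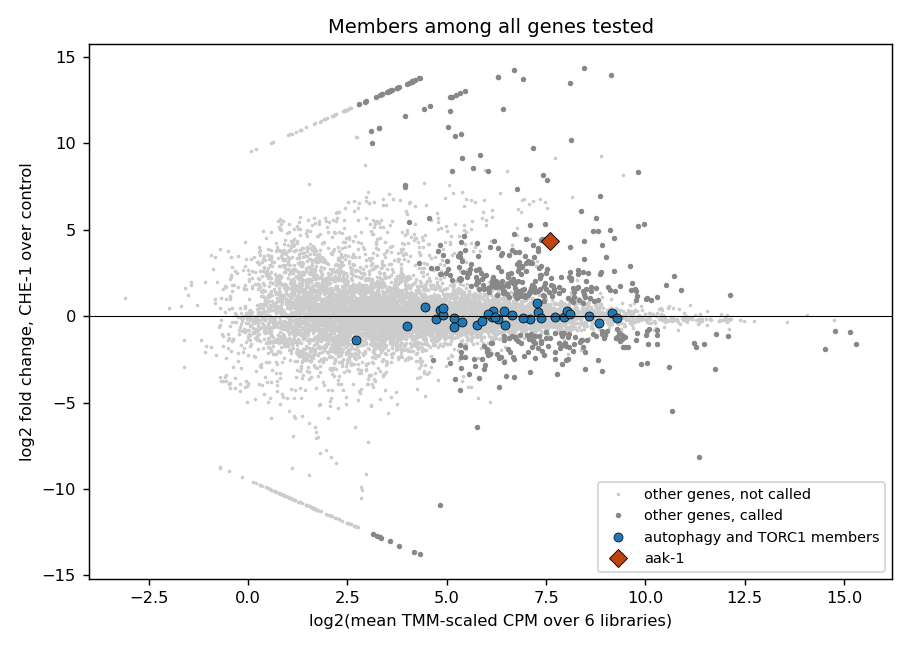
Log2 fold change, CHE-1 over control, against log2 of the mean TMM-scaled CPM for the 9112 genes tested, with called genes in dark grey, the 33 tested members as blue circles and aak-1 as a red diamond. The members lie between -1.37 and 0.75, while aak-1 lies at 4.37.

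Outside the set, a list of 69 names of other genes of the pathways was followed, of which 64 matched and 58 were tested. It covers selective autophagy, lysosomal fusion, AMP-activated kinase (AMPK), insulin signalling, lipases and targets of TORC1. The names let-512, atg-101, allo-2, epg-11 and rab-2 had no match in the name tables used, so these genes were not followed under them. One of the 58 was called higher and 0 lower, beside 5.06% of all tested genes called. Their median log2 fold change was -0.05, against 0.04 for all tested genes, and 8 of them had an unadjusted p under 0.05, where 14.2% of all tested genes had. The called gene was aak-1 (WBGene00019801, III:8756990-8761090), which encodes a catalytic subunit of AMPK, the energy-sensing kinase that restrains TORC1 and activates autophagy in animals.

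The level of aak-1 was 369.9, 323 and 419 CPM in the CHE-1 libraries, against 14.5, 23.6 and 15.7 CPM in the control libraries. The groups were far apart, and aak-1 rose by a log2 fold change of 4.37 (SE 0.29, interval 3.73 to 5.01, adjusted p = 7.40e-06 in edgeR). It was called in every alternative, with log2 fold changes from 4.197 to 4.56. Its exons share 100 bases with sma-2 on the opposite strand, which had 0 counts in every CHE-1 library and 74, 0 and 41 in controls. The summed neuronal markers rise beside aak-1 in the CHE-1 libraries, as given above, and their part in its value was not tested.

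The second catalytic gene, aak-2, was at 131, 207 and 132 CPM with CHE-1 and at 248, 182 and 232 CPM in controls, and did not pass (log2 fold change -0.50, interval -1.07 to 0.08, adjusted p = 0.489 in edgeR). Per kilobase, aak-1 made up 74.6%, 61.8% and 76.8% of the catalytic pair in the CHE-1 libraries, against 5.71%, 11.9% and 6.56% in the control libraries. The more abundant catalytic transcript was thus aak-1 in each CHE-1 library and aak-2 in each control library.

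Of the regulatory AMPK subunits none was called by edgeR's quasi-likelihood test, and 2 gamma genes that another tool called are named after their values were seen. The gene aakg-4 was at 25.2, 14.0 and 21.7 CPM with CHE-1 and at 0, 0 and 1.70 CPM in controls. The log2 fold change of 5.15 had an interval from 0.31 to 9.99, with control counts in 1 library alone. Its adjusted p was 0.299 in edgeR, 0.0456 in DESeq2, 0.0555 in limma-voom and 0.00557 in edgeR with adjusted deviances. The gene aakg-5 was at 31.8, 50.4 and 45.3 CPM with CHE-1 and at 90.9, 82.7 and 121.7 CPM in controls. Its log2 fold change of -1.21 (SE 0.33) just missed the threshold in edgeR's quasi-likelihood test (adjusted p = 0.0629). The gene passed in DESeq2 (0.00453), limma-voom (0.0373), edgeR with adjusted deviances (0.0168) and edgeR without a count filter (0.0352). The beta genes aakb-1 and aakb-2 had log2 fold changes of 1.63 and -0.15, with adjusted p of 0.922 and 0.998 in edgeR.

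**Figure D4:**
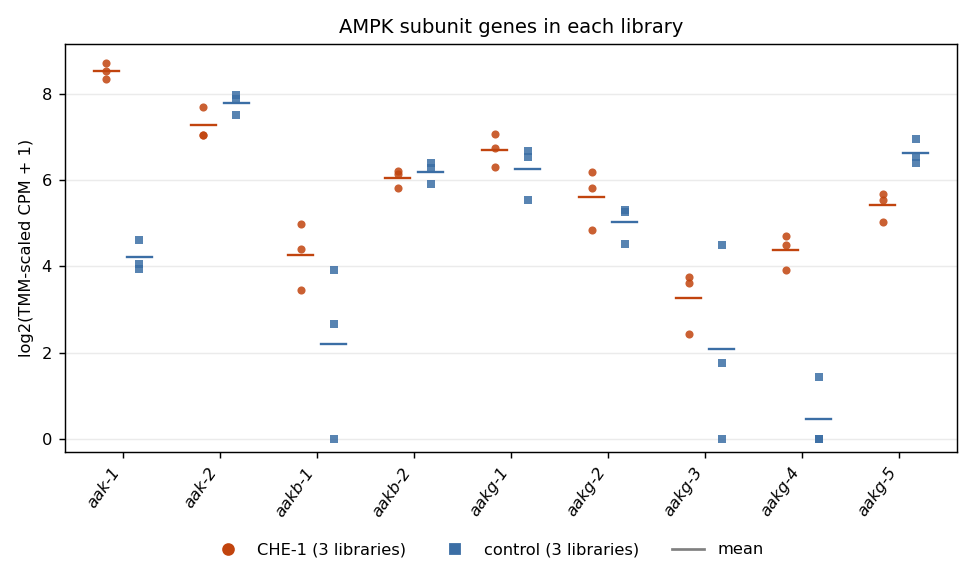
Level of the 9 AMPK subunit genes in each library, as log2 of TMM-scaled CPM plus 1, with CHE-1 circles left of control squares and a bar at the mean of the log2 values. The aak-1 points of the CHE-1 libraries all lie above those of the control libraries, and aakg-4 shows 2 control libraries at 0.

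In insulin signalling, which acts upstream of TOR, the receptor gene daf-2 was at 236, 232 and 201 CPM with CHE-1 and at 173, 100.8 and 98.2 CPM in controls (log2 fold change 0.85, adjusted p = 0.128 in edgeR and 0.0464 in DESeq2). The kinase gene akt-2 was at 115, 69.7 and 87.0 CPM with CHE-1 and at 145, 180 and 230 CPM in controls (-1.03, adjusted p = 0.0743 in edgeR and 0.0214 in DESeq2). Neither group pair overlapped, where 23.4% of all tested genes did not overlap. Of the 58 tested genes of the list, 6 lay higher and 6 lower with CHE-1 without overlap. Limma-voom and edgeR with adjusted deviances also called daf-2 (adjusted p = 0.0473 and 0.0375) and akt-2 (adjusted p = 0.0121 and 0.00586). The exportin gene xpo-1, which in worms carries HLH-30 out of the nucleus, was at 497, 499 and 509 CPM with CHE-1 and at 365, 335 and 384 CPM in controls (0.47, adjusted p = 0.226 in edgeR and 0.00360 in DESeq2). These 3 genes, too, are named after their values were seen. Over all genes, DESeq2 called 11.6%, limma-voom 7.99% and edgeR with adjusted deviances 11.5%.

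The lysosomal lipase genes lipl-1 to lipl-5, known targets of HLH-30 and MXL-3 in the fasted intestine, were near the detection limit in both groups. Of the 5, lipl-1, lipl-2, lipl-3 and lipl-4 each had counts in a single library and were not tested. The gene lipl-5 was at 0, 6.73 and 3.91 CPM with CHE-1 and at 1.24, 0 and 4.08 CPM in controls (adjusted p = 0.998 in edgeR).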

How the data were processed

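Polyadenylated RNA of sorted coelomocytes was sequenced in strand-specific, paired-end libraries, per the series' design text, with 3 CHE-1 and 3 control libraries. The authors deposited estimated counts per gene, rounded to whole numbers. The submitters' processing notes name Salmon 0.13.1 and WBcel235, and DESeq2, with no role given. The strand setting of the counting and the summing of transcripts to genes are not stated there. A deposited normalized table is a signal equal to the count over 1 factor per library, as its values show, and served only to check this.

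Names and merged exon lengths came from a gene name table and the Ensembl annotation of WBcel235. The members and lists were chosen with earlier results of these data known. The test was edgeR 4.0.16 in R 4.3.3 (TMM, minimum count 10, minimum total 15, robust, two-sided), with Benjamini-Hochberg adjustment over all genes tested. The SE is the log2 fold change over the square root of F, and intervals use the fit's t distribution, so both are approximate. Levels are TMM-scaled CPM. Alternatives were DESeq2 1.42.0, limma-voom (limma 3.58.1), DESeq2 size factors, no count filter, adjusted deviances, leaving out each library, leaving out the smallest of each group and, chosen after seeing the data, a block of adjacent library numbers. The 4 tools were run on counts drawn from the real means, library sizes and dispersions with known changes added, as a check of the scripts.

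Full values were set by rule for members called by any tool, the most abundant member per length of each role, other pathway genes called by edgeR, che-1 and unc-122; further values account for the remaining members. Planned protein and promoter sequences were not used here. Libraries 1 to 3 of each group are numbered in accession order. The library numbers in the titles run in adjacent control and CHE-1 pairs, and no label says whether these share a culture or sort. No label names separate cultures or sorts, so the spread behind each p-value may be technical. Same-group libraries were no copies of each other (chi-square over its degrees of freedom 207 or more). Of the members, 8 share 3 to 107 exon bases with a gene on the opposite strand, and reads there may not be separated. Limits from low counts cover counting error only.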

Additional observations from a re-analysis of the deposited data

How the results depend on the processing

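The titles number the libraries in 3 adjacent control and CHE-1 pairs, which no label ties to a shared culture or sort. Deviations from the group means correlated at 0.039, -0.070 and 0.035 within these pairs over 9112 genes. Between libraries of different pairs the correlations ran from -0.093 to 0.079. With 3 libraries per group, these values cannot decide whether the pairs share a culture or sort. A replicate block of these pairs, chosen after seeing the data, called 0 members in each direction, 364 genes higher and 205 lower, and 2 other pathway genes higher (aak-1 and daf-2) and 0 lower. It turned the log2 fold change of lgg-2 to -0.030. The count of 0 members called in each direction held in every alternative run except DESeq2, which called 1 higher and 1 lower (the 1 higher among cargo, the 1 lower among conjugation genes). Over all genes, against 307 higher and 154 lower, DESeq2 called 690 and 414, limma-voom 461 and 267, edgeR with adjusted deviances 697 and 355, and edgeR without a count filter 474 and 255. Of the other pathway genes, 58 of them in the main test, DESeq2 called 4 higher and 2 lower, against 1 and 0. Limma-voom called 2 and 2, adjusted deviances 3 and 2, and the fit without a count filter 1 and 2. Over all genes, DESeq2 called 11.6% in either direction, limma-voom 7.99% and adjusted deviances 11.5%. Leaving out each library gave 1 to 2 higher (2 without control library 1, with daf-2, and 2 without control library 3, with aakg-4) and 0 to 1 lower (akt-2 without control library 1 or CHE-1 library 1, aakg-5 without control library 2).

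The sign of small differences depended on single libraries: of 429 member values under the alternatives, 51 changed sign, in 19 of 33 members, none of them called and the smallest adjusted p among them 0.340. Without the smallest library of each group (CHE-1 library 1 and control library 2) the log2 fold change was 0.33 for atg-9, -0.29 for bec-1, 0.26 for atg-3, 0.20 for atg-4.1, -0.46 for atg-16.2, 0.53 for atg-2, 0.0035 for atg-18, -0.57 for epg-4, 0.0053 for epg-5, 0.19 for epg-6 and 0.078 for rsks-1. With limma-voom it was -0.033 for bec-1, -0.23 for atg-16.2, 0.15 for atg-2, -0.18 for epg-4 and 0.056 for epg-6. With adjusted deviances it was 0.024 for atg-3, 0.031 for atg-2, -0.14 for epg-4 and 0.0035 for epg-6. When each library was left out in turn, the log2 fold change ran from -0.82 to 0.023 for atg-9, -0.12 to 0.33 for bec-1, -0.28 to 0.28 for vps-15, -0.29 to 0.24 for lgg-2, -0.62 to 0.14 for atg-3, -0.43 to 0.16 for atg-5, -0.63 to 0.048 for atg-7, -0.47 to 0.71 for atg-16.2, -0.31 to 0.29 for atg-2, -0.31 to 0.060 for atg-18, -0.32 to 0.34 for epg-4, -0.39 to 0.045 for epg-5, -0.31 to 0.12 for epg-6, -0.35 to 0.66 for mxl-3, -0.44 to 0.02 for daf-15, -0.34 to 0.14 for raga-1, -0.031 to 0.52 for flcn-1 and -0.27 to 0.034 for rsks-1. The cause of these shifts was not tested. Counts uneven between libraries limit atg-4.2 (0 to 790 counts), atg-10 (0 to 295) and rheb-1 (22 to 1945).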
